A study of Bos taurus with 46 samples.

Results

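A set of 9 genes that mark the monocyte lineage, *CD14*, *CSF1R*, *CD163*, *FCGR1A*, *FCGR3A*, *VCAN*, *CD68*, *TREM1* and *SIRPA*, was followed in the blood leukocytes of pregnant heifers. They were chosen by symbol in the NCBI gene table, and all 9 of the 9 symbols were found among its 30675 genes. Maternal blood was taken from 23 Angus crossbred heifers on D55 and again on D105 of gestation, which gave 46 libraries. Of these, 8 had conceived by artificial insemination (AI, the control), while the others received in vitro produced (IVP) embryos. When the fetuses were collected on D105, those of the IVP heifers were either under the weight that the study set for overgrowth (IVP-Normal, n = 6) or over it (IVP-LOS, large offspring syndrome, n = 9). The fetuses were bred as crosses of *Bos taurus indicus* and *Bos taurus taurus*. Heifers 604 and 664, both IVP-LOS, carried the 2 largest fetuses of the study and are given separately. The study focused on them also because their transcriptomes stood apart when these same libraries were clustered. The label BACKUP is carried by the D105 libraries of AI and of IVP-LOS heifers, and the label New by the other 29. In AI and IVP-LOS heifers the day and the label therefore cannot be told apart. The experiment ran over several seasons. A legend in the study's supplement places the D55 blood in winter and the D105 blood in summer. By that legend the day and the season cannot be told apart in any group.

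Monocytes are circulating phagocytes made in the bone marrow under the growth factor receptor CSF1R. In cattle, classical monocytes carry much CD14 and little CD16, the product of *FCGR3A*, while non-classical monocytes carry the reverse. Several of the 9 genes are also used by other blood cells: neutrophils carry TREM1, SIRPA, CD68 and some CD14, and natural killer cells carry CD16. The leukocytes were the whole buffy coat after lysis of red cells, with no sorting. In such a mixture, fewer monocytes and less RNA of a gene per monocyte cannot be told apart.

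Reads counted on genes numbered 18692653 in the shallowest library and 24502012 in the deepest. Levels are given as CPM, the reads of a gene relative to all reads of its library on a common scale, after TMM scaling, which corrects for depth and composition. Of the 9 members, 8 (all but *FCGR1A*) were read in every library with at least 95 reads. *FCGR1A*, the high-affinity receptor for IgG (CD64), had 1 to 18 reads per library (median 8) and a mean of 0.341 CPM, so that single heifers cannot be ordered by it. No transcript lengths were used, and levels are compared between samples and not between genes. *SIRPA*, *TREM1* and both Fc receptor genes belong to families of similar genes, and reads that fit more than 1 place are not counted by the counting tool used.

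Other genes of the monocyte lineage were read alongside the members. In an unsorted mixture at this depth, the presence of reads does not show which cells they came from, so this is no test of the lineage label. Of 10 transcription factors of the monocyte lineage, all 10 were read in every library, with *SPI1* at a mean of 261 CPM. Of 25 further monocyte and macrophage genes, 23 were in the table. Among them *FCN1*, a secreted lectin of monocytes, had a mean of 347 CPM, while the tissue macrophage genes *MARCO* and *APOE* were at 0 reads in 16 and 11 of 46 libraries. Others of this list went the other way. *MRC1* and *MSR1* were read in every library, at means of 4.53 and 4.21 CPM. *CD36* had a mean of 0.212 CPM and 0 reads in 4 libraries. The samples also held other cells: B cell markers summed to between 1721 and 6869 CPM per library and T cell markers to between 1402 and 3643 CPM. The neutrophil list (15 of 16 genes in the table) summed to between 415 and 13734 CPM. Its most counted genes were *S100A12* and *S100A9*, at means of 961 and 295 CPM over the 46 libraries. The sum therefore rests largely on few genes, and the part of monocytes in their reads was not tested.

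The receptors that sense microbes come first. *CD14* encodes the co-receptor that hands lipopolysaccharide to TLR4. On D55 it ranged from 29.6 to 127.2 CPM in AI heifers (median 49.2, n = 8), from 32.1 to 50.4 CPM in IVP-Normal heifers (median 39.5, n = 6) and from 23.5 to 107.1 CPM in IVP-LOS heifers (median 48.3, n = 9). On D105 it ranged from 63.0 to 245 CPM in AI (median 100.4), from 33.3 to 117.02 CPM in IVP-Normal (median 65.6) and from 10.8 to 315 CPM in IVP-LOS heifers (median 61.6). The 3 groups overlapped on both days, and the IVP-LOS group held both the lowest and the highest D105 libraries. *CD14* was higher on D105 than on D55 in 7 of 8 AI heifers, 5 of 6 IVP-Normal heifers and 4 of 9 IVP-LOS heifers.

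*TREM1* encodes a receptor of monocytes and neutrophils that amplifies inflammatory signals. Its D55 levels were 12.01 to 38.9 CPM in AI (median 17.5), 9.59 to 23.4 CPM in IVP-Normal (median 11.9) and 10.6 to 50.2 CPM in IVP-LOS heifers (median 19.8). Its D105 levels were 27.5 to 85.8 CPM in AI (median 41.3), 15.9 to 90.9 CPM in IVP-Normal (median 28.8) and 5.06 to 144 CPM in IVP-LOS heifers (median 22.1). Every AI heifer (8 of 8) and every IVP-Normal heifer (6 of 6) had more *TREM1* on D105 than on D55, against 3 of 9 IVP-LOS heifers.

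Of the Fc receptors, *FCGR3A* (CD16) binds IgG on non-classical monocytes and natural killer cells. Its medians on D55 were 147, 139 and 147 CPM in AI, IVP-Normal and IVP-LOS heifers, with all 23 heifers between 88.0 and 432 CPM. On D105 the medians were 176, 161 and 138 CPM, and the heifers lay between 56.1 and 366 CPM. *FCGR3A* was the member whose levels kept closest together on D105, with a coefficient of variation of 48.4% over the 23 heifers. It was higher on D105 in 3 of 8 AI, 2 of 6 IVP-Normal and 2 of 9 IVP-LOS heifers.

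*CD163*, the scavenger receptor that takes up complexes of haptoglobin and haemoglobin, had the highest coefficient of variation of the 9 members on D105, 107.4% over the 23 heifers. On D55 it was 53.9%, below the 67.1% of *VCAN*. Levels on D55 were 20.4 to 101.9 CPM in AI (median 40.5), 13.5 to 38.3 CPM in IVP-Normal (median 27.0) and 20.8 to 91.0 CPM in IVP-LOS heifers (median 43.4). On D105 they were 36.1 to 287 CPM in AI (median 65.7), 17.5 to 97.4 CPM in IVP-Normal (median 36.7) and 10.9 to 268 CPM in IVP-LOS heifers (median 43.1). The wide D105 range came from a few high heifers, 546 (287 CPM), 637 (268 CPM) and 590 (200 CPM), and from 604 and 664 at the low end.

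*CSF1R*, the receptor for the growth factors CSF1 and IL34, had D55 medians of 206, 168 and 224 CPM in AI, IVP-Normal and IVP-LOS heifers and D105 medians of 243, 156 and 163 CPM. More *CSF1R* on D105 than on D55 was seen in 5 of 8 AI, 3 of 6 IVP-Normal and 3 of 9 IVP-LOS heifers. *SIRPA* encodes the inhibitory receptor that binds CD47 on other cells. Its medians went from 225 CPM on D55 to 486 CPM on D105 in AI, from 182 to 265 CPM in IVP-Normal and from 232 to 250 CPM in IVP-LOS heifers, and it was higher on D105 in 8 of 8, 5 of 6 and 4 of 9 heifers.

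*CD68*, a lysosomal membrane glycoprotein, was higher on D105 in 8 of 8 AI, 6 of 6 IVP-Normal and 7 of 9 IVP-LOS heifers. Its medians went from 42.6 to 101.3 CPM in AI, from 37.6 to 73.0 CPM in IVP-Normal and from 41.3 to 56.0 CPM in IVP-LOS heifers. *VCAN* encodes versican, an extracellular matrix proteoglycan that classical monocytes make. Its medians went from 108.4 to 177 CPM in AI, from 77.1 to 86.8 CPM in IVP-Normal and from 92.8 to 91.4 CPM in IVP-LOS heifers. *FCGR1A* had medians between 0.230 and 0.387 CPM in every group and day.

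**Figure D1:**
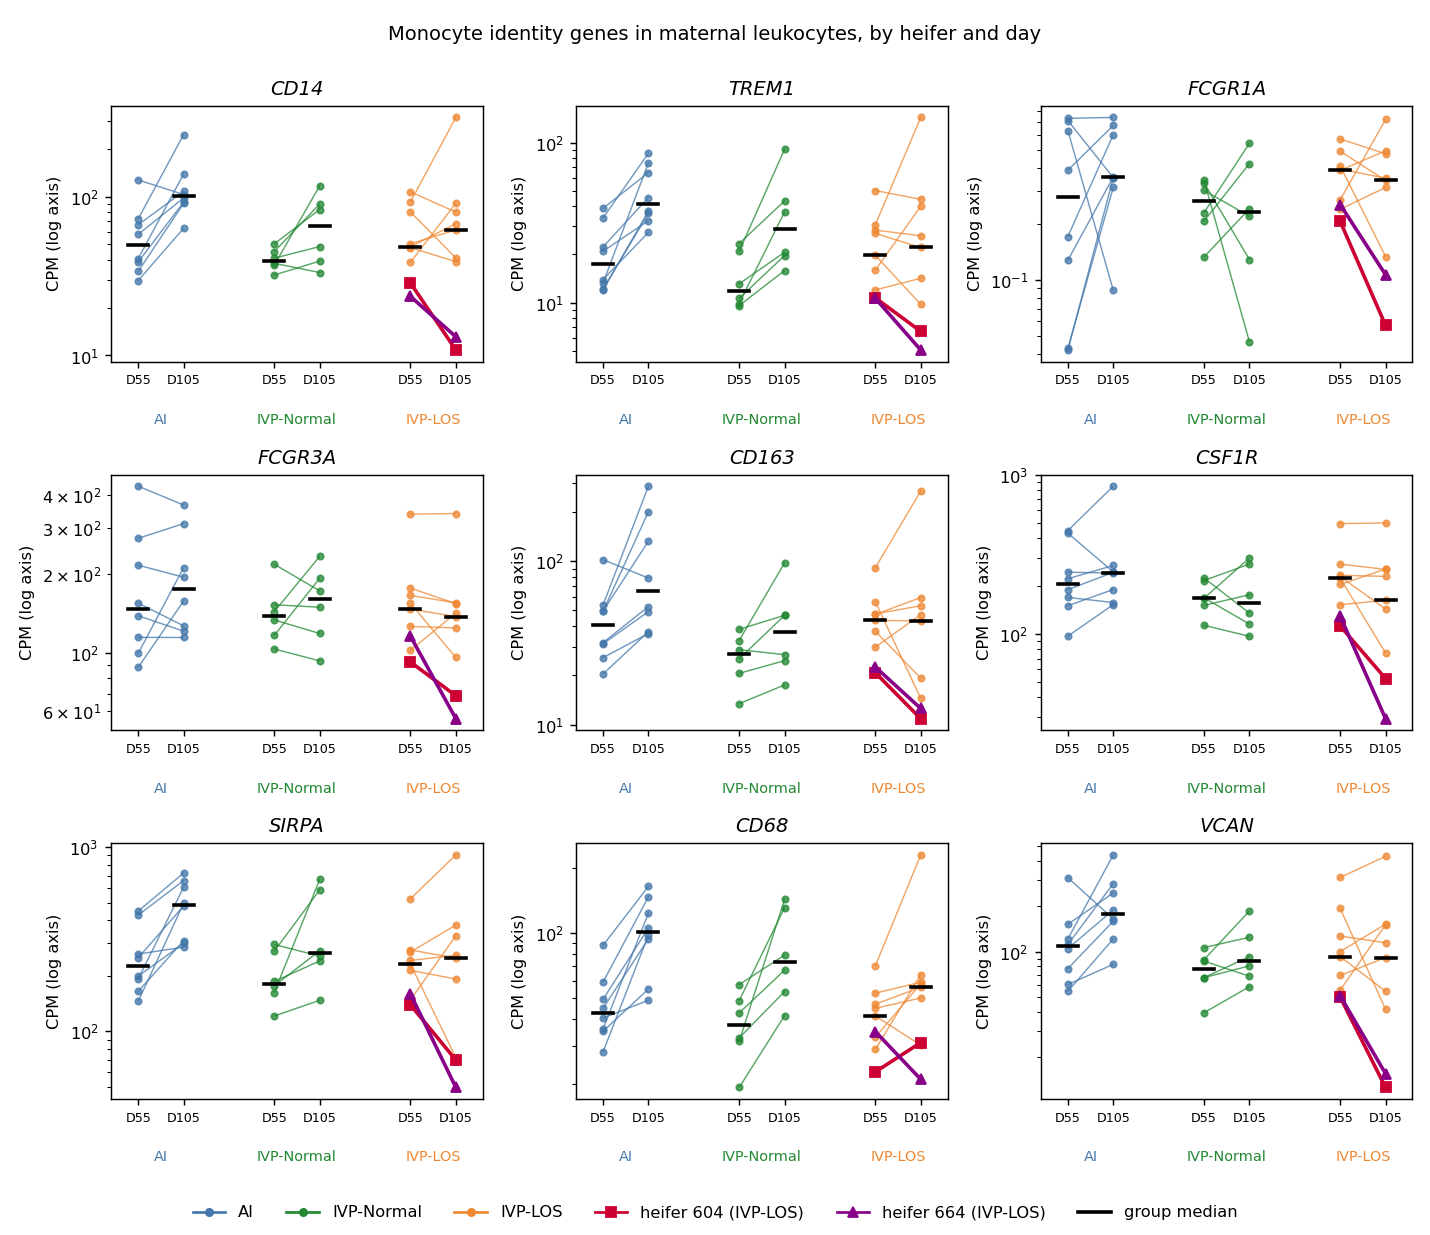
CPM (log axis) of the 9 genes in every heifer, with a line from D55 to D105 for each heifer, in the AI (n = 8), IVP-Normal (n = 6) and IVP-LOS (n = 9) groups; black bars are group medians, and heifers 604 and 664 have their own colours. All 8 AI heifers go up for TREM1, SIRPA and CD68, and on D105 both 604 and 664 lie below all 21 other heifers for 7 of the 9 genes. The share of all genes with this order was not counted.

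The first comparison asked whether the genes changed between the days within a group. In AI heifers, 4 of the 8 members tested rose from D55 to D105 by edgeR's quasi-likelihood test with Benjamini-Hochberg adjustment (FDR of at most 0.05). This fit had no term for heifer, so both libraries of a heifer were treated as independent. *TREM1* rose by a log2 fold change of 1.27 (SE 0.30, FDR 0.0103, 2.42-fold) and *CD68* by 1.14 (SE 0.26, FDR 0.00869, 2.20-fold). *CD14* rose by 1.01 (SE 0.31, FDR 0.0454, 2.01-fold) and *SIRPA* by 0.88 (SE 0.27, FDR 0.0422, 1.85-fold). Among all 15248 genes tested, 9.95% were called, and 7.21% were called higher. The median log2 fold change was 0.95 over the 8 members and -0.02 over all genes tested. *FCGR1A* had too few reads to be tested.

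The other 4 members were not called in AI heifers. *CD163* had a log2 fold change of 1.26 (SE 0.45, FDR 0.0942) and *VCAN* one of 0.76 (SE 0.36, FDR 0.222). The values of *CSF1R*, 0.27 (SE 0.37), and *FCGR3A*, 0.08 (SE 0.34), were smaller than their errors. *CD68* and *TREM1* kept their call when any 1 of the 8 AI heifers was left out, whereas *SIRPA* was called in 3 and *CD14* in 1 of these 8 fits, with FDR of up to 0.139 and 0.131. The count fell from 4 to 2 without heifer 517, 533, 590, 606 or 648. Without heifer 609, whose *CD14*, *CD163*, *CSF1R* and *VCAN* were lower on D105 than on D55, 6 members were called, *CD163* and *VCAN* in addition (6.5% of all genes called higher). The same 6 were called with all 8 heifers when heifer was a block, so that each D105 library was set against the D55 library of its own heifer (10.2% of all genes called higher).

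In IVP-Normal heifers, whose libraries carry the label New on both days, 0 of 8 members were called, with 4 at an unadjusted p under 0.05 and 2.45% of all genes called. The estimates were 1.37 for *TREM1* (SE 0.41, FDR 0.123), 1.14 for *CD68* (SE 0.32, FDR 0.0964), 0.83 for *SIRPA* (SE 0.35, FDR 0.307) and 0.75 for *CD14* (SE 0.27, FDR 0.228). Those of *TREM1*, *CD68* and *SIRPA* lay near the AI values, and that of *CD14* was lower. *CD163*, at 0.70 (SE 0.37) against 1.26 in AI, and *VCAN*, at 0.41 (SE 0.28) against 0.76, were lower as well. *CSF1R* and *FCGR3A* had log2 fold changes of 0.07 (SE 0.27) and 0.14 (SE 0.22). *CD68* and *TREM1* were called with heifer as a block (4.49% of all genes called higher), by edgeR's likelihood ratio test (3.7% called higher) and by DESeq2 (3.12% called higher). The call in IVP-Normal heifers thus depended on the test, while all 8 estimates were above 0 in the reported fit.

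In IVP-LOS heifers, 0 of 8 members were called by the quasi-likelihood test, the likelihood ratio test or DESeq2, and 0 had an unadjusted p under 0.05. The share of all genes called was 0.251%. Estimates ranged from -0.26 for *CSF1R* (SE 0.42) to 0.69 for *CD68* (SE 0.37, FDR 0.463), with *TREM1* at 0.62 (SE 0.54) and *CD14* at 0.49 (SE 0.51). These estimates rested on heifer 637: without it, *CD14* stood at -0.06, *TREM1* at -0.04, *CD163* and *VCAN* at -0.21 and *SIRPA* at -0.06. Of the 9 IVP-LOS heifers 4, namely 557, 602, 604 and 664, had 7 or more of the 9 members lower on D105, while 0 of 8 AI and 0 of 6 IVP-Normal heifers did. For heifer 602 this count of 7 includes *FCGR1A*. In 2 IVP-LOS heifers, 637 and 656, 9 and 8 members were higher on D105, and 7 or more were higher in 6 of 8 AI and 3 of 6 IVP-Normal heifers. The difference between the groups in the day change was tested itself, again with no term for heifer. Of the members, 0 were called for IVP-LOS against AI, IVP-LOS against IVP-Normal or IVP-Normal against AI, 0 of them had an unadjusted p under 0.05, and 0% of all genes were called in each (795, 134 and 546 genes at an unadjusted p under 0.05). With heifer as a block, 7 of 9 members had an unadjusted p under 0.05 for IVP-LOS against AI, and 0 were called. When heifers 604 and 664 were left out of that fit, 3 had such a p. The share of all genes with such a p was not counted for these blocked fits, so the counts have no background to be read against.

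**Figure D2:**
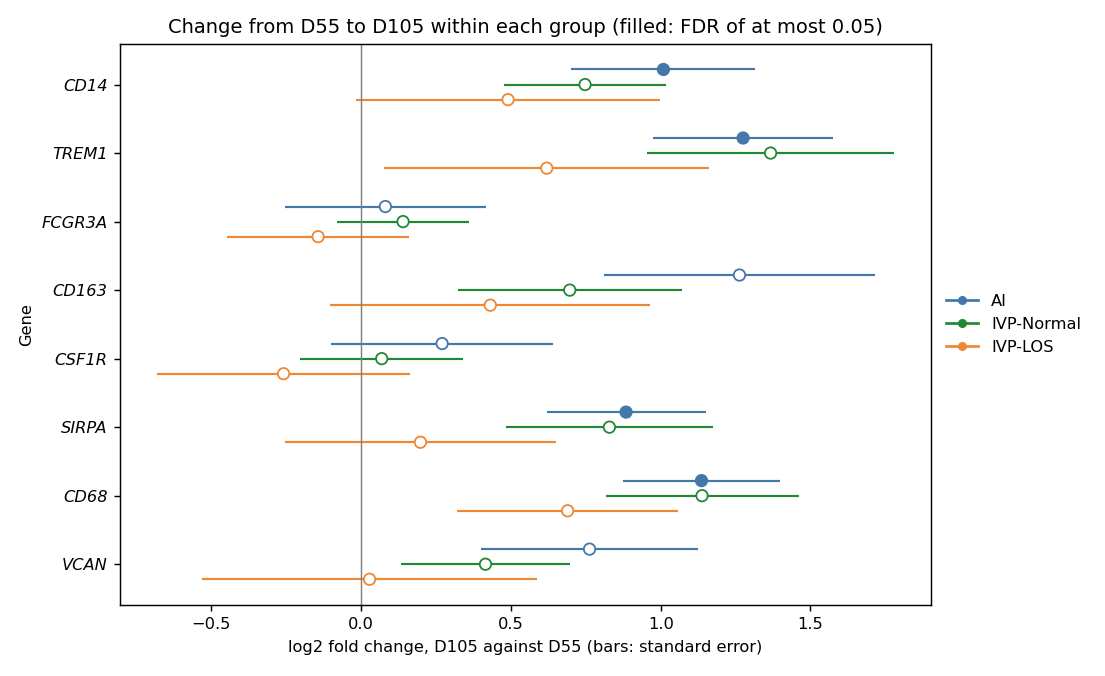
Log2 fold change on D105 against D55 (x axis) of the 8 members tested (y axis) in AI, IVP-Normal and IVP-LOS heifers, with bars for 1 standard error and filled points for an FDR of at most 0.05. The 4 filled points all belong to the AI group, and CSF1R lies between -0.26 and 0.27 in the 3 groups.

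Genes that work with the members were counted from lists. Of 18 partners, such as ligands and signalling adaptors, 16 were tested on day in AI heifers and 3 rose: *TLR4*, the lipopolysaccharide receptor, by 1.44 (SE 0.26, FDR 0.0013), its co-factor *LY96* by 0.77 (SE 0.16, FDR 0.00428), and the adaptor *TYROBP*, through which TREM1 signals, by 0.77 (SE 0.20, FDR 0.0188). Of the 16 tested in IVP-Normal heifers, 2 rose, *TLR4* by 1.50 (SE 0.32, FDR 0.0217) and *LY96* by 0.63 (SE 0.15, FDR 0.0354). In IVP-LOS heifers 0 of 16 were called.

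Of the 10 monocyte transcription factors, 0 were called in any of the 3 groups, with median log2 fold changes of 0.04 in AI, -0.10 in IVP-Normal and -0.11 in IVP-LOS heifers. Of the other monocyte and macrophage genes, 20 were tested in each group. In AI heifers 1 of the 20 rose, *SLC11A1*, a metal transporter of the phagosome, by 0.98 (SE 0.29, FDR 0.0358), and the medians were 0.07, -0.07 and -0.22.

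Genes of the neutrophil list moved with the day. Of 14 neutrophil genes tested in AI heifers 13 rose, with *MMP9* at a log2 fold change of 4.40 (SE 0.50, FDR 4.90e-05), *CXCR2* at 4.24 (SE 0.50) and *CXCR1* at 5.26 (SE 0.63), and the median was 1.92. Of 14 tested in IVP-Normal heifers 9 rose (median 1.77), and of 13 tested in IVP-LOS heifers 0 were called (median 1.60). The summed level of the list went from 722 to 1667 CPM on D55 to 1914 to 5244 CPM on D105 in AI heifers, and it was higher on D105 in 8 of 8 AI, 6 of 6 IVP-Normal and 5 of 9 IVP-LOS heifers. The only 1 of its genes at 0 reads in some libraries was *MMP8* (25 of 46). Part of the same cells' RNA can be *TREM1*, *SIRPA*, *CD68* and *CD14*, and the part of neutrophils in the rise of these members was not tested.

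Fewer genes were called in the other lists. Of 9 B cell markers, 7 natural killer cell markers, 6 platelet markers, 3 erythroid markers and 2 eosinophil markers tested in AI heifers, 0 were called. Of 12 T cell markers 1 rose, *CD28* by 0.47 (SE 0.12, FDR 0.0167). Of 7 dendritic cell markers 3 rose, led by *XCR1* at 1.23 (SE 0.17, FDR 0.000154). In IVP-Normal heifers 1 natural killer cell marker, *GZMB*, and 1 dendritic cell marker, *IL3RA*, rose, and in IVP-LOS heifers 0 markers of these lists were called. The summed level of the B cell list was lower on D105 in 7 of 8 AI, 6 of 6 IVP-Normal and 6 of 9 IVP-LOS heifers, with medians from 4000 to 3183 CPM in AI and from 5142 to 4170 CPM in IVP-Normal heifers. The sum of the dendritic cell list was lower on D105 in 7 of 8, 4 of 6 and 4 of 9 heifers, although single genes of it rose. The part of these cells in the day changes of the members was not tested.

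**Figure D3:**
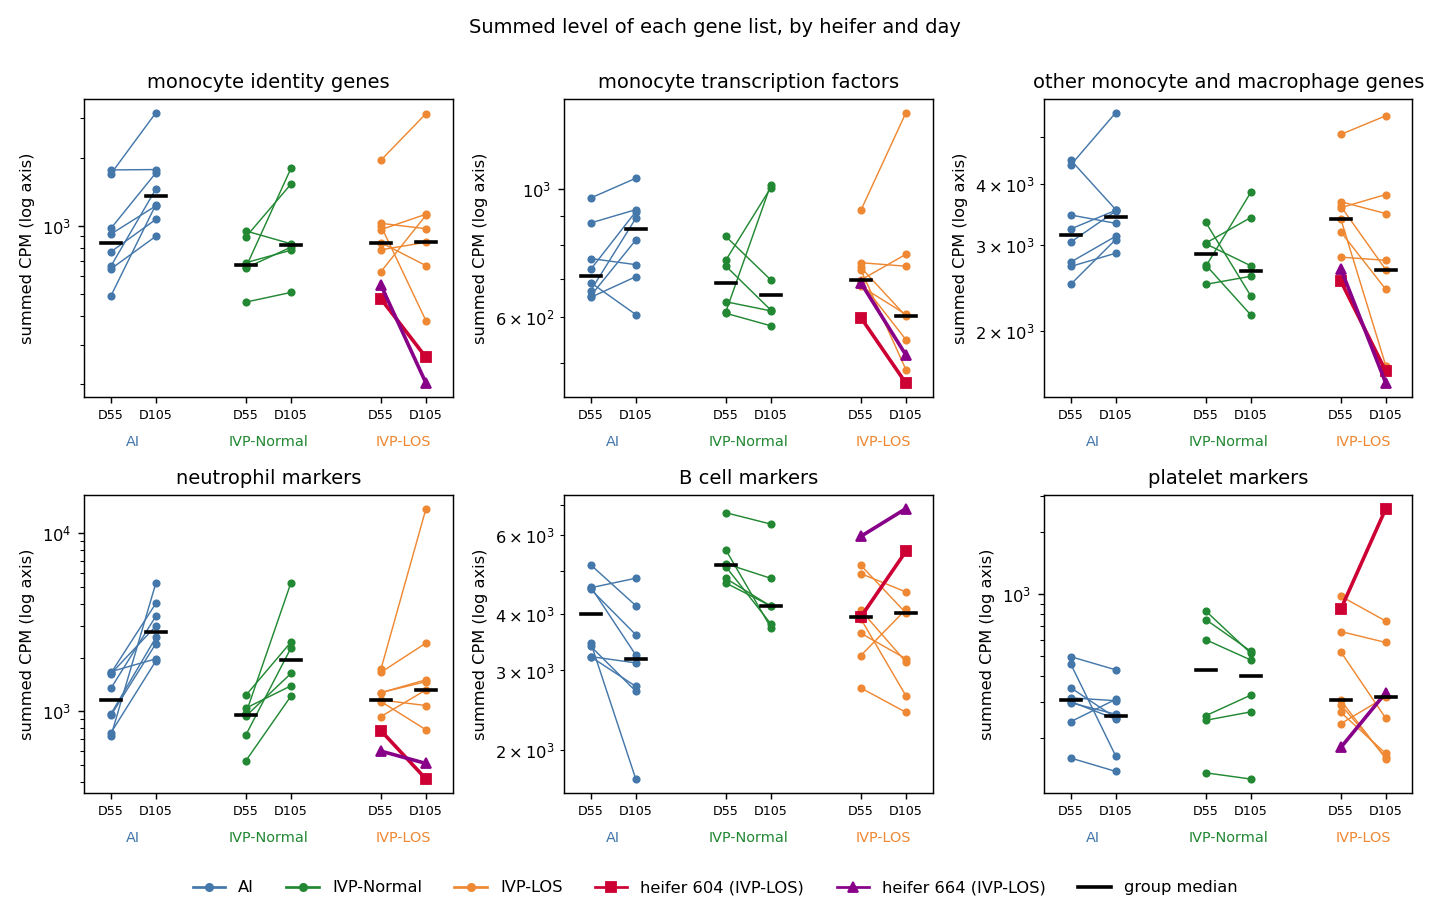
Summed CPM (log axis) of 6 gene lists in every heifer on D55 and D105, by group, with black bars for group medians and heifers 604 and 664 in their own colours. The neutrophil list goes up in all 8 AI and all 6 IVP-Normal heifers, and heifer 637 stands highest in it on D105 at 13734 CPM.

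The next comparison asked whether the genes differed between AI, IVP-Normal and IVP-LOS pregnancies on the same day. In all 6 comparisons 0 of 8 members were called, by the quasi-likelihood test, the likelihood ratio test or DESeq2, and 0% of all genes were called by the quasi-likelihood test (501 to 1522 genes at an unadjusted p under 0.05), against 1 to 11 genes by the likelihood ratio test and 2 to 42 by DESeq2. The members at an unadjusted p under 0.05 numbered 1 for IVP-Normal against AI and 1 for IVP-LOS against IVP-Normal on D55, and 3 for IVP-Normal against AI on D105.

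On D105 all 8 members tested had a lower estimate in IVP-Normal than in AI heifers. The largest were *CD163* at -1.33 (SE 0.53, FDR 0.514) and *VCAN* at -1.04 (SE 0.34, FDR 0.514), and *CD14* stood at -0.77 (SE 0.32, FDR 0.514). In the plot of levels, IVP-Normal and AI heifers overlapped for each gene. These 2 groups also differ in the library label on D105, so that the group and the label cannot be told apart. The D55 comparison, in which both carry the label New, gave estimates of the same sign for 8 of 8 members, from -0.79 for *CD163* (SE 0.33) to -0.30 for *CD68* (SE 0.26), with FDR of at least 0.493.

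For IVP-LOS against AI, both labelled BACKUP on D105, estimates lay between -0.90 for *CD163* (SE 0.62) and -0.50 for *FCGR3A* (SE 0.32), with FDR of at least 0.754. Heifer 637 weighed on these values: without it, all 8 members had an unadjusted p under 0.05, 0 were called, and estimates lay between -1.73 for *CD163* (FDR 0.122) and -0.76 for *FCGR3A* (FDR 0.182), with *CD68* at -1.16 (FDR 0.064). The share of all genes with such a p was not counted for the fit without heifer 637. On D55 the estimates for IVP-LOS against AI lay between -0.27 and 0.13. For IVP-LOS against IVP-Normal they lay between 0.12 and 0.75 on D55 and between -0.37 and 0.44 on D105.

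The last comparison set the dams of the 2 largest fetuses against the other 21 heifers. As the study picked this pair partly by clustering of these libraries, the counts of called genes are no independent test. On D105, 7 of 9 members fell below the other heifers' level in 604 and 664 by the quasi-likelihood test: *CD14*, *CSF1R*, *FCGR3A*, *VCAN*, *CD68*, *TREM1* and *SIRPA*. Of all 16841 genes tested 21.1% were called, and 9.48% were called lower. The median log2 fold change was -2.73 over the 9 members and -0.02 over all genes. On D105 both heifers lay below all 21 others for 7 of 9 members, the exceptions being *CD68* and *FCGR1A*. The share of all genes with this order was not counted, and the members vary together (median r of 0.86 on D105). The count is therefore not shown to be particular to the members. As the libraries of 604 and 664 stood apart, their values are shown one by one.

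*CD14* was 10.8 CPM in 604 and 13.1 CPM in 664 on D105, against 33.3 to 315 CPM in the others (median 89.8), a log2 fold change of -3.02 (SE 0.76, FDR 0.00956). *VCAN* was 12.7 and 15.6 CPM against 41.5 to 437 CPM (median 124.8), the largest difference of the 9 at -3.48 (SE 0.85, FDR 0.00812). *TREM1* was 6.61 and 5.06 CPM against 9.76 to 144 CPM (median 36.9), a difference of -2.92 (SE 0.86, FDR 0.0207). For these 3 genes, as for 7 of the 9 members, neither of the 2 heifers reached the lowest of the others.

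*SIRPA* was 69.9 CPM in 604 and 49.7 CPM in 664 against 72.1 to 907 CPM (median 310), a difference of -2.74 (SE 0.71, FDR 0.011). *CSF1R* was 52.4 and 29.3 CPM against 75.9 to 849 CPM (median 230), a difference of -2.56 (SE 0.70, FDR 0.0153). The nearest of the others was in both cases heifer 557, also IVP-LOS, which lay close to 604 for *SIRPA*. *FCGR3A* was 68.6 and 56.1 CPM against 93.2 to 366 CPM (median 154), the smallest called difference at -1.50 (SE 0.45, FDR 0.0231).

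*CD68* was 31.1 CPM in 604 and 21.05 CPM in 664 against 30.3 to 229 CPM (median 67.2), a difference of -1.79 (SE 0.61, FDR 0.0398), and 604 lay above 1 of the others. *CD163* was 10.9 and 12.6 CPM against 14.5 to 287 CPM (median 47.1). Although both heifers lay below the others, its difference of -2.73 had the largest error (SE 1.09) and was not called (FDR 0.0733). *FCGR1A* had 1 read in 604 and 2 reads in 664 against 1 to 18 reads in the others (median 8), and it was not called (FDR 0.0702).

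The call depended on having both heifers. With only 604 or only 664 in place of the pair, 0 members were called, with 6 and 7 members at an unadjusted p under 0.05 and 0.518% and 0.772% of all genes called lower. Against the other 7 IVP-LOS heifers alone 1 member was called, *CSF1R*, with 8 at an unadjusted p under 0.05 and 3.41% of all genes called lower. Among the libraries labelled BACKUP 8 were called (13.2% of all genes called lower). Without heifer 637 or without heifer 546, which were often the highest of the reference, 7 were called (10.4% and 8.54%).

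On D55 of the same pregnancies, 0 of 9 members were called for the pair, with 1 at an unadjusted p under 0.05 and 0.0179% of all genes called. All 9 estimates were below 0, from -1.18 for *VCAN* (SE 0.61) to -0.56 for *FCGR1A* (SE 0.69), and *CD14* stood at -1.10 (SE 0.46, FDR 0.947). *CD14* was 28.5 CPM in 604 and 23.5 CPM in 664 on D55, the 2 lowest of the 23 heifers, the others lying between 29.6 and 127.2 CPM. Heifer 604 was among the 5 lowest for 8 members and heifer 664 for 6, inside the range of the others for every member but *CD14*.

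From D55 to D105 the 9 members went down in 664, and 8 of 9 went down in 604, with *CD68* the exception. The difference of this change from that of the other 21 heifers was not called for any of the 9 members, with 5 at an unadjusted p under 0.05, and 2.08% of all genes were called. Estimates ran from -2.31 for *VCAN* (SE 0.91, FDR 0.127) and -2.02 for *SIRPA* (SE 0.72, FDR 0.1) to -0.79 for *FCGR3A* (SE 0.60). With heifer as a block 5 members were called lower, *CD14*, *CSF1R*, *SIRPA*, *TREM1* and *VCAN*, and 7.89% of all genes were called lower. That fit uses the pairing of each heifer's libraries.

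**Figure D4:**
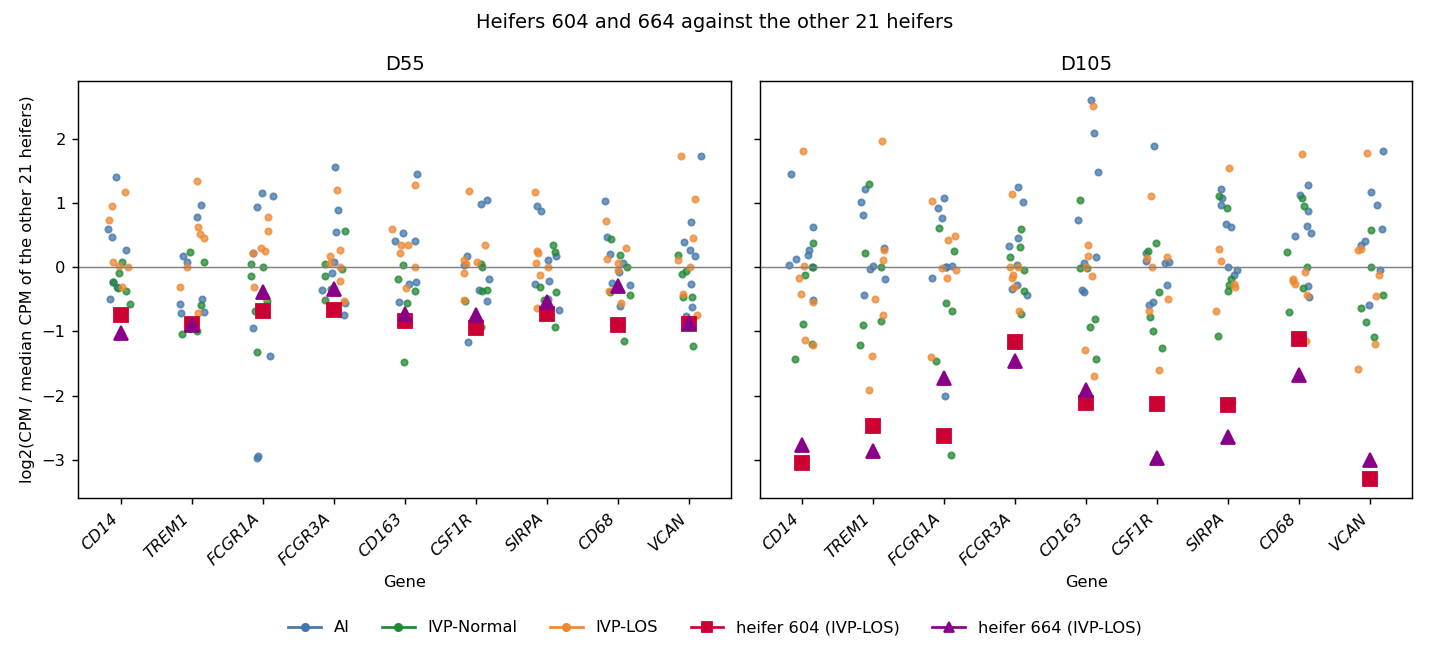
Log2 ratio of each heifer's CPM to the median CPM of the other 21 heifers (y axis) for the 9 genes (x axis), on D55 at left and D105 at right; the square is heifer 604, the triangle heifer 664 and the dots the other 21. On D55 the 2 heifers lie in the lower part of the range, and on D105 both lie below every dot for 7 of 9 genes. The share of all genes with this order was not counted.

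Some of the partners and lineage genes fell as well in the pair on D105. Of 16 partners tested 7 fell and 0 rose, with *TYROBP* at -2.56 (SE 0.62, FDR 0.0077), *HP*, the haptoglobin that CD163 binds, at -3.25 (SE 0.84, FDR 0.0111) and *TLR4* at -2.54 (SE 0.70, FDR 0.0158). Of 10 monocyte transcription factors 4 fell, with *KLF4* at -2.43 (SE 0.67, FDR 0.0153), and 0 rose. Of 21 other monocyte and macrophage genes 9 fell and 0 rose, led by *LRP1* at -2.94 (SE 0.66, FDR 0.00527) and *SLC11A1* at -3.02 (SE 0.74, FDR 0.00821). List medians were -0.85, -0.74 and -1.39. The summed level of the partners, 3106 and 3692 CPM in 604 and 664, lay inside that of the others, 2907 to 5390 CPM. The transcription factors stood at 461 and 516 CPM in 604 and 664 against 486 to 1358 CPM, while the members stood at 263 and 203 CPM against 381 to 3156 CPM.

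Genes listed as markers of other cells moved with the pair as well, and the part of monocytes in the neutrophil list was not tested. Of 15 neutrophil markers 9 fell and 0 rose, with a list sum of 415 and 508 CPM against 785 to 13734 CPM. Of 9 B cell markers 3 rose, led by *PAX5* at 0.94 (SE 0.23, FDR 0.00866), with sums of 5520 and 6869 CPM against 1721 to 6346 CPM. Of 6 platelet markers 5 rose, led by *PF4* at 2.59 (SE 0.56, FDR 0.00441), and the sum was 2611 CPM in 604 but 333 CPM in 664, where the others lay between 126.6 and 741 CPM.

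The other lists showed smaller counts. Of 3 erythroid markers 1 rose, *HBB*, with a sum of 591 CPM in 604 and 136 CPM in 664 against 11.2 to 153 CPM. Of 12 T cell markers 2 fell, of 8 dendritic cell markers 3 fell and 1 rose, and of 7 natural killer cell and 2 eosinophil markers 0 were called. The share of reads on no gene was 38.0% in 604 and 36.1% in 664 on D105 against 23.9% to 30.5% in the others, and on D55 it was 25.8% and 23.8%. Both also had the fewest reads on genes (18692653 and 19641136). The part of cell mixture and of library quality in the low level of the members was not tested.

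The members varied together among heifers. Over the 23 heifers of 1 day, Pearson's r of log2(CPM + 1) was above 0 for all 36 pairs of members on both days. The median r was 0.69 on D55 (range 0.14 to 0.93) and 0.86 on D105 (range 0.47 to 0.97), and without 604 and 664 it was 0.66 and 0.77. The points of a day share the library make-up, so that these values only describe the samples. *FCGR1A*, with few reads, had the lowest median r with the other members, 0.27 on D55 and 0.55 on D105, and *SIRPA* had the highest on D55 (0.85).

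On D55 the highest values were those of *CD163* with *VCAN* (r = 0.93) and of *CSF1R* with *SIRPA* (r = 0.92), and *CD14* and *CD163* had an r of 0.79. *FCGR3A* went with *CD68* (r = 0.87) and *CSF1R* (r = 0.87), and less with *TREM1* (r = 0.38) and *CD14* (r = 0.55). On D105 these last 2 values were 0.85 and 0.82. The same heifers were high on both days to differing degrees: r between D55 and D105 was 0.70 for *FCGR3A*, 0.69 for *CSF1R* and 0.51 for *SIRPA*, with Spearman's rho of 0.53, 0.56 and 0.42 (n = 23). Heifer 637 was the highest or second highest of 23 for 6 members on D55 and 8 on D105, and heifer 546 for 4 and 7.

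**Figure D5:**
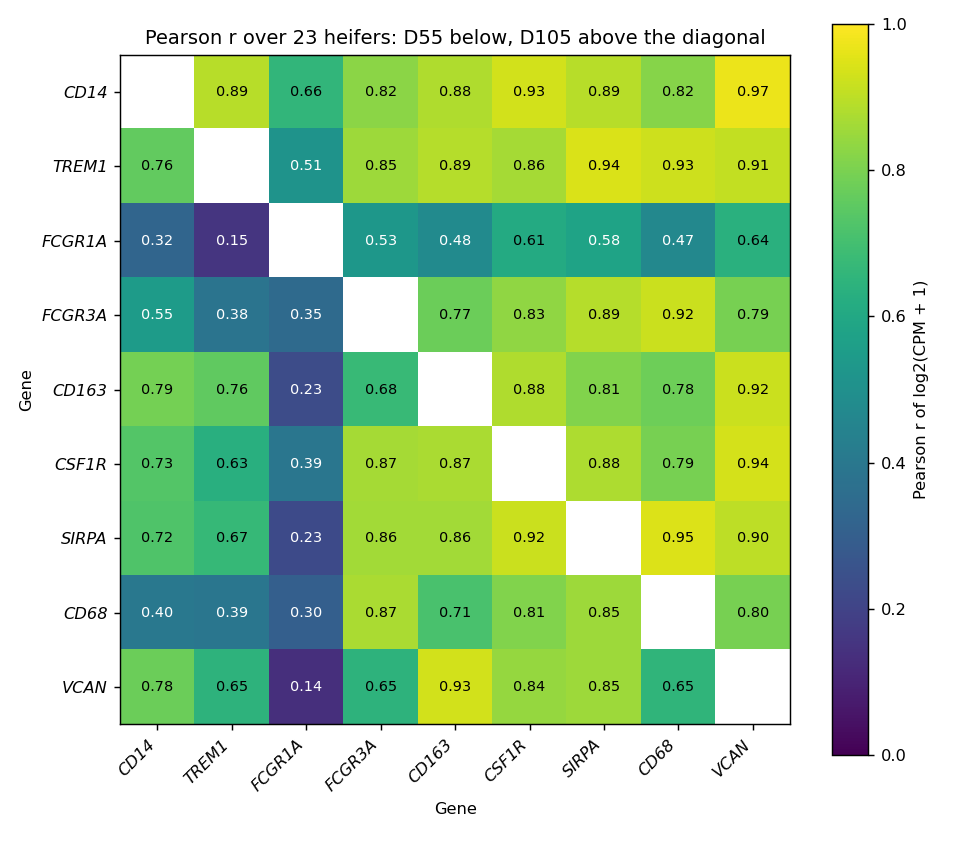
Pearson r of log2(CPM + 1) over the 23 heifers for each pair of the 9 genes, with D55 below and D105 above the diagonal and the colour scale from 0 to 1. All 36 values of each day are above 0, and the row and column of FCGR1A hold the lowest ones.

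Over 13725 genes with a mean of at least 1 CPM on D55, the gene most like each member over the 23 D55 libraries was listed. *CSF1R* and *SIRPA* had the same one, *ACVRL1*, a receptor of the TGF-beta family (r = 0.96 and 0.95). *CD14* was most like *ADAMTS2* (r = 0.92), a procollagen peptidase, *CD163* most like *ATP6AP1* (r = 0.93), a subunit of the vacuolar proton pump, and *VCAN* most like *DCBLD1* (r = 0.92). *FCGR3A* was most like *SH2D1B* (r = 0.95), an adaptor of natural killer cells, *TREM1* most like *DCSTAMP* (r = 0.91), a gene of cell fusion in osteoclasts, and *CD68* most like *LOC508459* (r = 0.93). For *FCGR1A* the best value was 0.63, with *LOC112444151*. Over the 23 D105 libraries the r of these pairs lay between 0.85 and 0.96, apart from *FCGR1A* (0.41).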

How the data were processed

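RNA of blood leukocytes (buffy coat, red cells lysed) from 23 heifers on D55 and D105 was sequenced as 100 bp paired ends. Per the study's methods and the labels, the authors trimmed reads, aligned them with HISAT2 2.1.0 to ARS-UCD1.2 and counted NCBI RefSeq genes with HTSeq (union mode). What the authors deposited are raw counts of each gene, with no normalization. An Ensembl table was not used, since its identifiers are not paired with symbols here. Library preparation is not stated to keep strand.

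Groups were taken from the labels, and heifers 604 and 664 from the heifer number. Fits used R 4.3.3 and edgeR 4.0.16 on the libraries of each comparison (15 in all): TMM, filterByExpr (minimum count 10), quasi-likelihood F-test and Benjamini-Hochberg adjustment over all genes tested, called at an FDR of at most 0.05. No main fit had a term for heifer, so in the comparisons of days both libraries of a heifer were treated as independent. The standard error is the absolute log2 fold change over the square root of F. Correlations used log2(CPM + 1). On simulated counts for AI on D105 against D55 (15248 genes), 78% of changes of 1 on the log2 scale were recovered, with 9 false calls. For the pair on D105 (16841 genes), 45% of changes of 1 and 76% of changes of 2 were recovered, with 12 false calls.

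The libraries of 1 heifer deviated from their group means together (r = 0.53 on average, at least 0.28 in all 23 heifers), since both days come from the same animal, so heifer pairs the libraries. No 2 libraries were identical. Alternatives were DESeq2 1.42.0 and edgeR's likelihood ratio tests, upper-quartile scaling, no filter, heifer as a block and libraries left out. The members and lists were chosen with earlier results of these data known. Named genes are the 9 members, for each comparison up to 3 called genes of a list, taken by FDR, and the most similar gene of each member. Ranges of levels, and lineage genes named by their level, were chosen after values were seen. The number of fetuses was not used. The values of 1 gene that this rule would name are not reported here.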

Additional observations from a re-analysis of the deposited data

Results flagged for a closer look

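In each group and day, the highest and the lowest heifer were compared with the next one by Dixon's test at the 95% level (54 combinations of gene, group and day). In 19 of them the highest heifer was set apart, and in 0 the lowest. Chance flags about 1 in 20 such groups (5%) where values are normally spread. The test was run on CPM and not on its log, and CPM has a long upper tail here, so that this rate does not hold and high heifers are flagged more readily. The 9 genes also vary together, so that 1 high heifer is counted several times.

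Heifer 637 (IVP-LOS) was set apart on D105 for 8 members: *CD14* at 315 CPM (next heifer 90.8 CPM), *CSF1R* at 498 CPM, *CD163* at 268 CPM (next 59.8 CPM), *FCGR3A* at 340 CPM, *VCAN* at 428 CPM, *CD68* at 229 CPM, *TREM1* at 144 CPM and *SIRPA* at 907 CPM. On D55 the same heifer was set apart for *CSF1R* at 494 CPM, *FCGR3A* at 338 CPM and *SIRPA* at 524 CPM. Its neutrophil markers summed to 13734 CPM on D105 and 1723 CPM on D55, the highest of each day.

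Heifer 546 (AI) was set apart on D105 for *CD14* at 245 CPM and *CSF1R* at 849 CPM (next heifer 269 CPM). Heifer 609 (AI) was set apart on D55 for *CD14* at 127.2 CPM, *CD163* at 101.9 CPM and *VCAN* at 309 CPM. Heifer 628 (IVP-Normal) was set apart on D105 for *CD163* at 97.4 CPM and *TREM1* at 90.9 CPM, and heifer 663 (IVP-LOS) on D55 for *TREM1* at 50.2 CPM. The part of a differing cell mixture in these values was not tested.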

How the results depend on the processing

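In AI heifers, leaving out each heifer on D105 against D55, an alternative added after seeing the data, gave 2 to 6 members called against 4. In IVP-Normal heifers 2 were called against 0 by edgeR's likelihood ratio test, by DESeq2 and with heifer as a replicate block, and 4 with the block and the likelihood ratio test together (added after seeing the data). For the pair on D105, 7 members became 0 without 604 and 0 without 664, where the heifer left is taken to vary like the others, and 1 against the other 7 IVP-LOS heifers. For the change of the pair between days, 0 became 5 with heifer as a replicate block. The block also took the AI count from 4 to 6, and it changed no other count of members. In the other 98 recounts the number of members called stayed within 1.5 times, which includes every recount in which 0 members stayed 0.

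Of 573 values of single members under another setting, 499 kept direction and call, 33 lost the call, 24 gained it and 17 changed sign, all of them uncalled. A kept call was mostly that of a value not called in either setting. On D105 against D55 in IVP-LOS heifers, the block gave -0.000866 for *CD14*, -0.19 for *CD163*, -0.39 for *VCAN* and -0.21 for *SIRPA*, and the block with the likelihood ratio test gave -0.018, -0.21, -0.41 and -0.22. Without heifer 637 they stood at -0.059, -0.21, -0.21 and -0.057, with *TREM1* at -0.041, and upper-quartile scaling gave -0.045 for *VCAN*. In IVP-Normal heifers *CSF1R* stood at -0.021 with the block and at -0.022 with the block and the likelihood ratio test. In AI heifers *FCGR3A* ranged from -0.018 to 0.20 when 1 heifer was left out. The cause of these changes was not tested.

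Counts over all genes moved more. With the block, 1517 genes called between days in AI heifers became 2603, 374 in IVP-Normal heifers became 838 and 38 in IVP-LOS heifers became 162, and 359 for the change of the pair became 2885. The likelihood ratio test and DESeq2 gave 613 and 823 in IVP-Normal heifers, 227 and 422 in IVP-LOS heifers and 581 and 878 for the change of the pair. For the pair on D105, 3550 became 567 without 604, 725 without 664 and 1466 against the other 7 IVP-LOS heifers. Leaving heifers 637 or 546 out of the reference, and 604 and 664 out of the blocked fits, was also added after seeing the data. The Ensembl table was not run as an alternative, since its identifiers have no symbols here. *FCGR1A*, with 1 to 18 reads, is limited by depth.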
